A study of Mus musculus with 142 samples.

Results

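The receptors for the transmitters glutamate and GABA were encoded by 45 of the 21813 protein-coding genes in the annotation, and these 45 genes are described here in cultured mouse oligodendrocyte lineage cells. They were picked by symbol alone, with no measured value used: 4 AMPA receptor subunits (Gria1 to Gria4), 5 kainate receptor subunits (Grik1 to Grik5), 7 NMDA receptor subunits (Grin1, Grin2a to Grin2d, Grin3a and Grin3b), 8 metabotropic glutamate receptors (Grm genes), 19 GABA-A receptor subunits (Gabr genes, the rho subunits included) and 2 GABA-B receptor subunits (Gabbr1 and Gabbr2). AMPA, kainate and NMDA receptor subunits assemble into cation channels that glutamate opens, and the metabotropic receptors act through G proteins. GABA-A subunits assemble into chloride channels, and the GABA-B subunits pair into a receptor that acts through G proteins. Oligodendrocyte progenitor cells (OPCs), the dividing cells that become myelinating oligodendrocytes, carry several of these receptors and are known for receiving synapses from neurons, and the genes change in level as the cells mature.

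The series holds RNA-seq libraries of OPCs, 71 with K27M and 71 control, from brainstem and dorsal telencephalon (cortex, corpus callosum and hippocampus) of mouse pups aged P5 to P7, the K27M ones carrying the histone H3.3 K27M mutation. Microglia and endothelial cells were depleted on a lectin-coated dish, OPCs were captured on an antibody to PDGFRa, and cells were expanded in medium with forskolin, CNTF, neurotrophin-3 and PDGF. The 4 lines of cells, brainstem K27M, brainstem control, telencephalon K27M and telencephalon control, were collected in that medium (day 0) and after 1, 2 and 5 days in medium with forskolin, CNTF and thyroid hormone, which gave 16 groups. Every group came from cultures 38, 41 and 42, each with up to 3 wells, so that a group held 9 libraries, or 8 in brainstem K27M at day 2 and in brainstem control at day 1.

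Several features limit the groups as models. K27M is expressed from the H3f3a locus (also named H3-3a) only in cells in which an hGFAP-Cre driver has been active, and the labels name the litters AMGFAP-Cre;K27M. Control pups were littermates, and the study's methods for single cells say that in controls without Cre the stop cassette leaves H3f3a expressed from a single allele. Pups were pooled by region and genotype before culture. Wells of 1 culture share their cells, and the spread over wells is in part technical. A gene was therefore called changed only where edgeR's quasi-likelihood test gave a Benjamini-Hochberg adjusted p under 0.05, with the same sign, both over wells and over counts summed by culture line. Brainstem libraries fell in batches 3 and 4, telencephalon libraries in batches 1 and 2, with culture 38 apart from cultures 41 and 42 in each region, so batch and region cannot be told apart. Passage moved with the groups as well. At day 5 the libraries were at passages 2 to 4 in brainstem K27M, 4 to 7 in brainstem control, 1 to 4 in telencephalon K27M and 1 to 3 in telencephalon control cells, and at day 1 at passages 2 to 6, 5 to 7, 1 to 4 and 2 to 4. Brainstem control cells thus stood at later passages than telencephalon control cells without overlap at both days. The same held at day 2, at passages 4 to 8 against 1 to 3. Passage and region cannot be told apart in control cells at days 1, 2 and 5. In brainstem at day 5, K27M and control cells were both at passage 4 in culture 38. They were at passages 2 (K27M) and 5 (control) in culture 41 and at 4 and 7 in culture 42. Passage and genotype cannot be told apart in cultures 41 and 42 there. At day 1 brainstem K27M cells were at earlier passages than control cells in each culture. They were at 6, 2 and 5 against 7, 5 and 6 in cultures 38, 41 and 42. At day 2 this held in culture 41 (2 against 4) and culture 42 (6 against 8). At day 0 it held in culture 41 (1 and 2 against 4), while in culture 42 the passage ranges overlapped (1 and 5 against 3 and 8). Where they did not overlap, passage and genotype cannot be told apart.

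The libraries held 26.6 to 455 M read pairs assigned to transcripts (M, 1e6; median 46.9 M) and 20157 to 33752 genes with a count. The 8 libraries with the most such genes, 28720 to 33752, stood apart: 6 of the 9 brainstem control libraries at day 5, all 3 of culture 41 among them, and 2 telencephalon K27M libraries at day 5. H3f3a, the targeted gene, had 247 to 438 TPM (the deposited measure of level, scaled to transcript length and to the library) in K27M libraries (median 338) and 40.0 to 324 TPM in control libraries (median 184). The median was higher in K27M libraries, the ranges overlapped, and the level does not show the mutation itself. Pdgfra, the marker used for capture, averaged 121 to 172 TPM over the groups at day 0. The summed microglial markers averaged at most 1.04 TPM in any group. The 13 neuron markers summed to group means of 21.8 to 25.8 TPM at day 0 and 84.7 to 119 TPM at day 5, higher at day 5 in every line. Most of the day 5 sum came from Tubb3 (52.7 to 83.8 TPM) and Elavl3 (23.6 to 29.4 TPM), while the vesicular transporter genes Slc17a6, Slc17a7 and Slc32a1, also on that list, averaged at most 0.159 TPM in any group. Astrocyte markers, 10 genes with Gfap, Aqp4 and Slc1a3 among them, summed at day 5 to means of 447 TPM in brainstem K27M, 179 in brainstem control, 562 in telencephalon K27M and 1325 in telencephalon control cells, against 143, 123, 94.2 and 157 TPM at day 0. The part of neuron and astrocyte markers in the changes over time was not tested. In bulk samples such as these, fewer cells of a type and less RNA per cell cannot be told apart. TPM levels also carry a shift that the fitted values do not. At day 5 the median log2 ratio of TPM over all tested genes was 0.34 for brainstem K27M over brainstem control. The median fitted fold change was -0.03. For day 5 over day 0 the TPM median was -0.07, -0.51, -0.39 and -0.37 in brainstem K27M, brainstem control, telencephalon K27M and telencephalon control cells. The fitted medians there were 0.06, 0.07, 0.08 and 0.09. Levels in TPM over time carry this shift, and fold changes below are the fitted ones.

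Of the 45 genes, 22 reached a mean of 1 TPM in at least 1 group, and most of these are described by their levels. They were all 4 AMPA, all 5 kainate, 3 of 7 NMDA, 3 of 8 metabotropic, 6 of 19 GABA-A and 1 of 2 GABA-B genes. Over all transcripts, coding or not, AMPA genes had the highest sum in every group, with group means of 47.7 to 99.2 TPM. At day 5 only 26.8 to 40.2% of the Gria2 part of that sum lay on protein-coding transcripts. NMDA transcripts were scarce, at 1.1 to 4.2 TPM. Kainate receptor genes summed to 19.2 to 34.7 TPM, metabotropic glutamate receptor genes to 16.8 to 43.2 TPM, GABA-A genes to 7.66 to 23.7 TPM and GABA-B genes to 8.7 to 23.8 TPM. A filter on low counts left 38 of the 45 genes for testing. The genes it removed, Gabra6, Gabre, Gabrp, Gabrr1, Gabrr3, Grm2 and Grm6, averaged at most 0.026 TPM in any group.

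**Figure D1:**
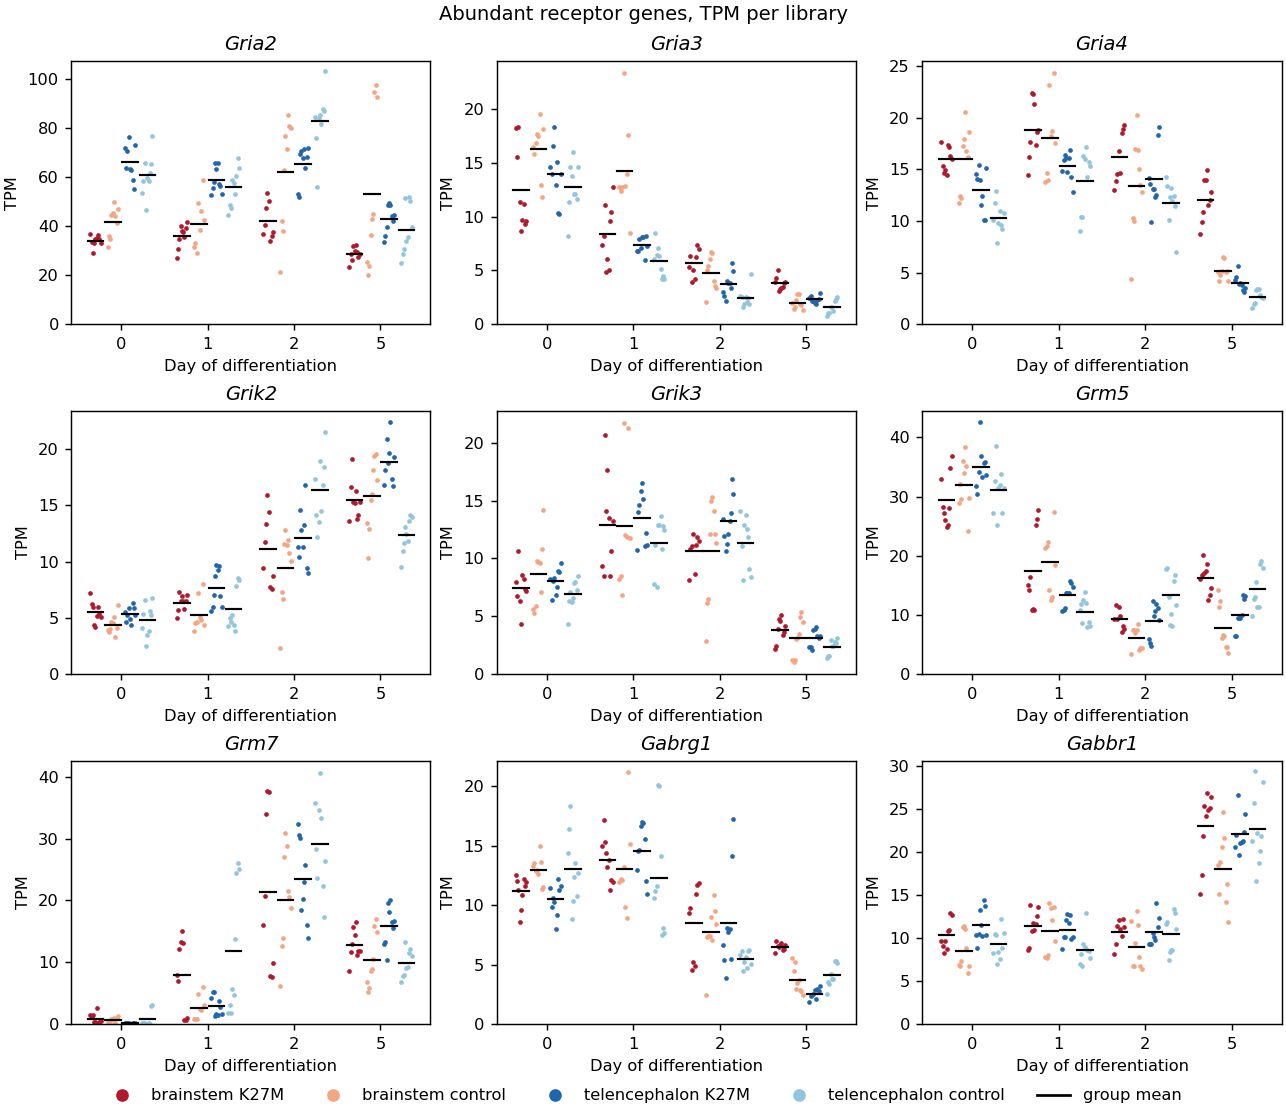
Level in TPM (linear axis) of 9 abundant receptor genes in every library by day, coloured by region and genotype, with bars at the group means. Gria3 and Grm5 start near their highest levels and Gabrg1 drops by day 5, while Grik2, Grm7 and Gabbr1 end above their day 0 levels.

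Differentiation changed most of these genes, as it changed most of the transcriptome. Comparing day 5 with day 0, 12 receptor genes were higher and 12 lower in brainstem K27M cells, where 59.6% of all 19769 tested genes were called. The counts were 12 higher and 15 lower in brainstem control cells (64.9% of all genes called), 13 and 13 in telencephalon K27M cells (64.9%), and 14 and 14 in telencephalon control cells (64.4%). The receptor genes thus moved about as often as genes in general, with median log2 fold changes of -0.18, -0.22, 0.08 and 0.24 in these 4 lines beside 0.06, 0.07, 0.08 and 0.09 over all genes. These calls were the most stable: 18 of 24, 22 of 27, 21 of 26 and 22 of 28 held with each culture left out in turn.

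K27M touched few receptor genes until day 5 in brainstem. Comparing K27M with control brainstem cells, 1 receptor gene was higher and 0 lower at day 0 (1.45% of all genes called), 1 higher and 1 lower at day 1 (4.93%), 2 higher and 0 lower at day 2 (4.26%), and 5 higher and 1 lower at day 5 (12.1%). Those 6 were 15.8% of the 38 receptor genes tested, near the share of all genes. In telencephalon cells no receptor gene was called at day 0 (0.389%) or day 1 (4.99%), 2 were higher and 3 lower at day 2 (5.3%), and 2 were higher and 1 lower at day 5 (2.28%). For the counts of 0, edgeR over wells gave 18 receptor genes at day 0 and 12 at day 1 with an unadjusted p under 0.05, edgeR over wells alone called 13 and 9 after adjustment, and DESeq2 over wells called 4 and 4. Of the K27M calls, 3, Grin2a in brainstem at days 2 and 5 and Gria4 in brainstem at day 5, held in every alternative run, leaving out each culture included.

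The K27M effect itself differed between regions for 0 receptor genes at day 0 (0.00506% of all genes called), 2 at day 1 (10.4%), 3 at day 2 (1.05%) and 9 at day 5 (5.11%; 23.7% of the receptor genes). At day 0, 14 receptor genes had an unadjusted p under 0.05 for that difference by edgeR over wells, edgeR over wells alone called 7, and DESeq2 called 4. The genes called at day 5 included Gabra2, Gabra4, Gabrb1, Gabrg1, Gabbr2, Gria1 and Grik4, for which the brainstem effect was the more positive, and Gria2, for which it was the more negative. None of the 9 was still called without culture 41 or without culture 42.

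By count, region set more receptor genes apart than genotype did, except in K27M cells at day 2. Region counts were higher in control than in K27M cells at days 1, 2 and 5, where more genes in general were called as well. Of the 38 receptor genes, region called 15.8, 7.9, 5.3 and 23.7% in K27M cells at days 0, 1, 2 and 5. In control cells the shares were 7.9, 31.6, 39.5 and 34.2%. Comparing brainstem with telencephalon in K27M cells, 3 receptor genes were higher and 3 lower at day 0 (4.28% of all genes called), 2 and 1 at day 1 (6.11%), 1 and 1 at day 2 (3.72%), and 6 and 3 at day 5 (9.2%). In control cells the counts were 2 and 1 at day 0 (12.2%), 9 and 3 at day 1 (31.5%), 5 and 10 at day 2 (11.5%), and 5 and 8 at day 5 (16.7%). With each culture left out in turn, 1 of 6, 1 of 3, 1 of 2 and 4 of 9 of the region calls held in K27M cells and 1 of 3, 4 of 12, 4 of 15 and 1 of 13 in control cells over the 4 days.

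**Figure D2:**
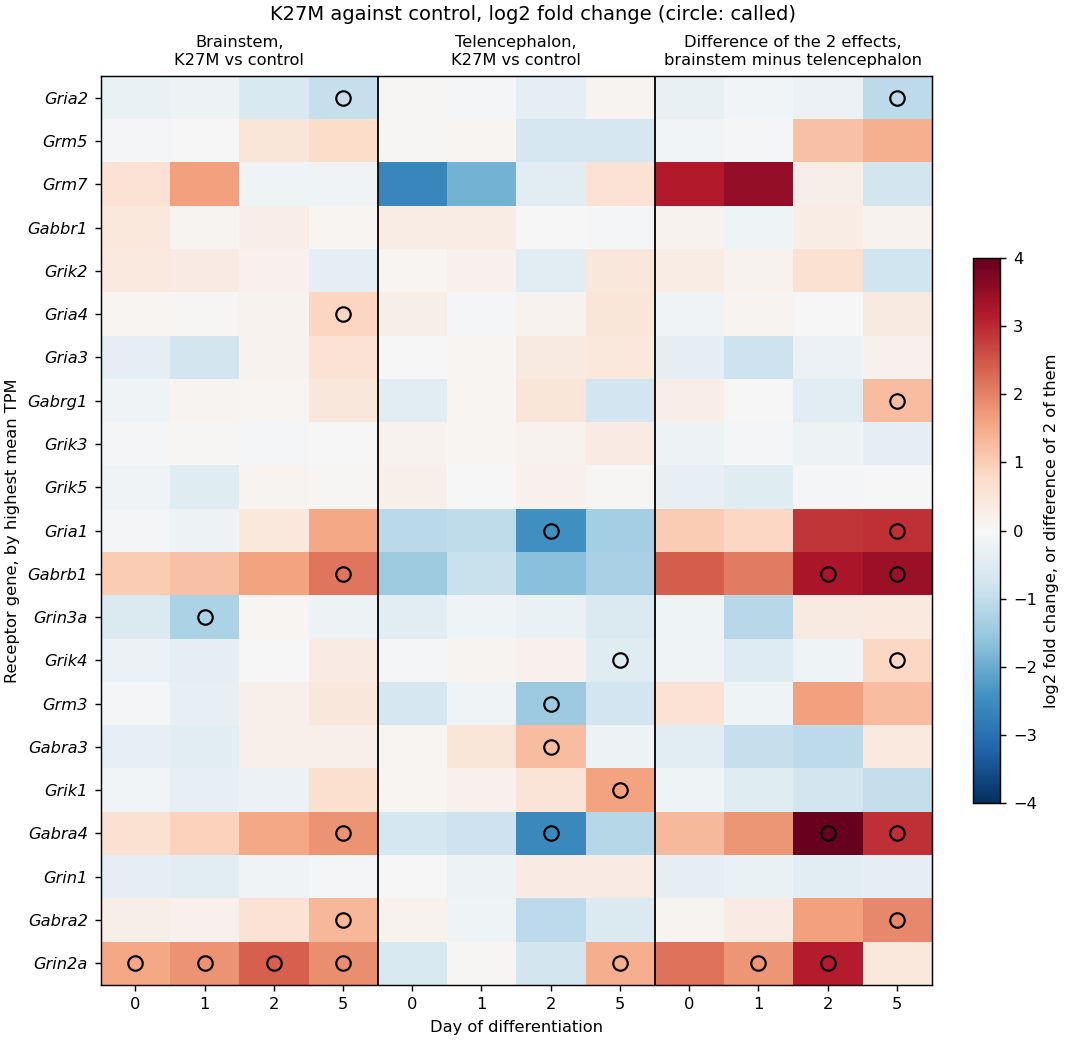
Fitted log2 fold change (K27M over control) of 21 of the genes described by level, as a heat map with columns for brainstem, for telencephalon and for the difference between them at days 0, 1, 2 and 5; circles mark calls. Most squares carry no circle, and the circles gather in the day 5 columns of brainstem and of the difference.

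AMPA receptor subunits. Gria2, whose edited protein keeps calcium out of AMPA receptors, was the most abundant of all 45 genes over all its transcripts, with group means of 28.6 to 82.7 TPM. On protein-coding transcripts alone its day 5 means were 11.5 to 14.6 TPM, below those of Gabbr1 (15.0 to 19.8 TPM) in each of the 4 lines. Gria2 (chr3:80681450-80802835, minus strand, GRCm38) and Gria4 (chr9:4417896-4796234, minus strand) each carry a pair of alternative exons named flip and flop, which encode the same stretch of the ligand-binding domain in 2 versions and set how fast the channel desensitizes. The exons are printed here because the transcripts behind the Gria2 and Gria4 results below are told apart by them. Each is 115 bases long, read from the GRCm38 genome, and capitals mark the bases that differ within a pair, 36 in Gria2 and 31 in Gria4.
Gria2 flip, chr3:80690404-80690518, minus strand: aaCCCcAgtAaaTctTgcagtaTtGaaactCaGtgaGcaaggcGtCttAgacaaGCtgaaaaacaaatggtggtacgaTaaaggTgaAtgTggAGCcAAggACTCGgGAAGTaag
Gria2 flop, chr3:80691320-80691434, minus strand: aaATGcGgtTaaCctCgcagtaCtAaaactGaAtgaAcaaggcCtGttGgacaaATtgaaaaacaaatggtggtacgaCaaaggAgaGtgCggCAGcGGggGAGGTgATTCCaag
Gria4 flip, chr9:4427030-4427144, minus strand: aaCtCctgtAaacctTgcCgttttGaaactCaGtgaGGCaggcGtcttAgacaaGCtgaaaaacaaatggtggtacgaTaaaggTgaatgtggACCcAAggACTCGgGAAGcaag
Gria4 flop, chr9:4432773-4432887, minus strand: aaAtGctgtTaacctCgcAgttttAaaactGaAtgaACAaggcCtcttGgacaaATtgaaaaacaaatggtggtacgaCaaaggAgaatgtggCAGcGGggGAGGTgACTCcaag

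Flip transcripts prevailed in all groups for both genes. Flip made up a mean of 76.8% to 81.5% of the Gria2 coding level over the 16 groups. For Gria4 the mean flip share was 87.5% to 92.7% in 15 groups and lower in telencephalon K27M cells at day 5. There it was 69.2%, 81.5% and 85.1% (lowest, median and highest library), against 82.5%, 90.8% and 99.0% in telencephalon control cells, ranges that overlapped and were not tested. The coding Gria2 flop transcript (10371 bases) and the main flip transcript (4026 bases) also differ in length, so these shares depend on how reads were assigned between them.

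Gria4, an AMPA subunit of fast-gating channels, was the AMPA gene most clearly set apart by K27M. At day 5 it had 8.75, 12 and 14.9 TPM (lowest, median and highest library) in brainstem K27M cells, against 4.21, 5.10 and 6.52 TPM in brainstem control cells. All 9 K27M libraries lay above all 9 control libraries. Its log2 fold change was 0.85 (SE 0.09), with edgeR adjusted p = 4.42e-15 by wells and 9.5e-05 by culture sums, and it stayed at 0.76 to 0.95 with any 1 culture left out. In telencephalon at day 5 Gria4 had 3.13, 3.92 and 5.62 TPM in K27M cells, against 1.60, 2.63 and 3.39 TPM in control cells, ranges that overlapped, and it was not called. Gria4 also separated the regions at day 5, being higher in brainstem in K27M cells (log2 fold change 1.41, SE 0.09) and in control cells (1.06, SE 0.09), with no overlap of libraries in either genotype, and both calls held with each culture left out. From day 0 to day 5 it fell in 3 of the 4 lines, by 1.02 on the log2 scale in brainstem control, by 1.21 in telencephalon K27M and by 1.46 in telencephalon control cells. In brainstem K27M cells it was not called over time, with 8.75, 12 and 14.9 TPM at day 5, against 14.4, 16 and 17.6 TPM at day 0.

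Gria2 moved the other way in brainstem at day 5. It had 23.2, 28.6 and 32.2 TPM in K27M cells, against 20.2, 42.8 and 97.5 TPM in control cells, where the 3 cultures averaged 23.1, 41.3 and 94.8 TPM (38, 41 and 42). The K27M libraries lay within the control range, at its low end. The log2 fold change was -0.93 (SE 0.11), with edgeR adjusted p = 8.57e-12 by wells and 0.00533 by culture sums. Without culture 42 it was -0.33 (adjusted p = 0.216 by edgeR) and without culture 41 it was -1.11 (adjusted p = 0.144), so the call ended with either left out. Part of the control level was not coding sequence: the retained-intron transcript Gria2-208 averaged 20.0 TPM in brainstem control cells at day 5 (4.63 to 43.8 TPM) against 3.77 TPM in brainstem K27M cells (1.5 to 6.02 TPM). On protein-coding transcripts alone the means were 11.5 TPM in K27M and 14.2 TPM in control cells, and the log2 fold change was -0.66 (edgeR adjusted p = 0.0147). Gria2 rose from day 0 to day 5 in brainstem control cells (log2 fold change 0.56, SE 0.11), but not on coding transcripts alone (-0.04, adjusted p = 0.909 by edgeR) or without culture 42 (-0.02, adjusted p = 0.85). In K27M cells at day 0 Gria2 was lower in brainstem, at 29.2, 34.6 and 36.6 TPM, than in telencephalon, at 55.2, 63.7 and 76.4 TPM, without overlap (log2 fold change -0.84, SE 0.11), a call that ended without culture 38 (adjusted p = 0.0902 by edgeR) or culture 41 (0.323) and with an offset for transcript length (-0.76, adjusted p = 0.0517). In telencephalon control cells Gria2 fell by 0.45 over the same days, and that call ended without culture 38 (-0.30, adjusted p = 0.176) or culture 41 (-0.68, adjusted p = 0.163) and with the length offset (-0.18, adjusted p = 0.273).

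**Figure D3:**
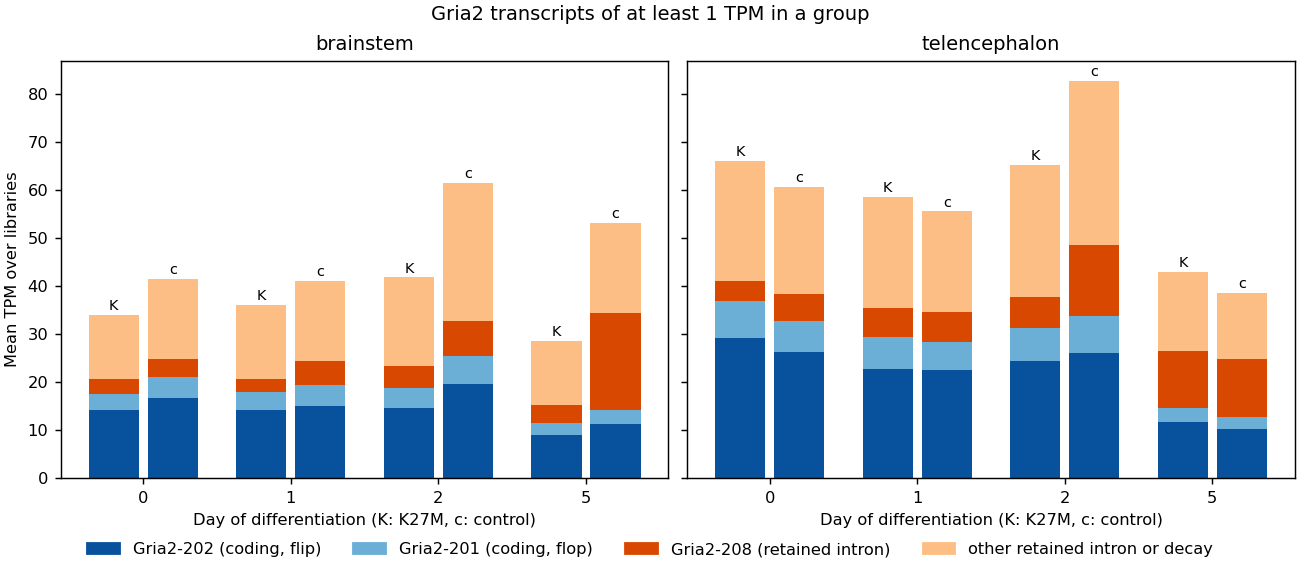
Mean level in TPM (linear axis from 0) of Gria2 transcripts stacked as coding flip, coding flop, retained intron and other, for K27M and control cells by day in each region. The retained-intron segment reaches 20.0 TPM in brainstem control cells at day 5 and 3.77 TPM in brainstem K27M cells.

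Gria1, the subunit that with Gria2 forms many neuronal AMPA receptors and that lets calcium pass where Gria2 is missing, was low at first and rose in 3 lines. At day 5 it had 1.74, 3.56 and 4.50 TPM in brainstem K27M cells, 1.09, 3.05 and 5.76 TPM in telencephalon K27M cells and 3.57, 8.22 and 13.7 TPM in telencephalon control cells. Brainstem control cells stayed at 0.213, 0.472 and 1.94 TPM. The log2 fold change from day 0 was 2.77 in brainstem K27M, 2.71 in telencephalon K27M and 3.00 in telencephalon control cells, and each held with every culture left out. At day 2 in telencephalon Gria1 was lower in K27M cells, at 0.165, 0.262 and 2.21 TPM against 0.725, 2.40 and 3.42 TPM in control cells, ranges that overlapped through the highest K27M libraries. Its log2 fold change was -2.45 (SE 0.36, edgeR adjusted p = 2.56e-08 by wells and 0.0196 by culture sums), and -1.75, -2.77 and -2.79 without culture 38, 41 and 42 (adjusted p = 0.094, 0.0577 and 0.192). The brainstem difference at day 5, 1.56 on the log2 scale, passed over wells (edgeR adjusted p = 0.000147) and not over culture sums (0.111). The K27M effect on Gria1 was more positive in brainstem than in telencephalon at day 5 by 2.93 (SE 0.49). In control cells Gria1 was lower in brainstem at day 2 (-3.50, SE 0.38) and day 5 (-3.06, SE 0.36), with no overlap of libraries, and the day 5 call ended without culture 42 (-2.50, adjusted p = 0.197 by edgeR).

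Astrocyte markers moved with Gria1 in most of the comparisons that follow. The summed level of the 10 markers was 33.6, 53.0 and 341 TPM in telencephalon K27M cells at day 2 against 92.3, 286 and 564 TPM in telencephalon control cells. At day 5 in brainstem it was 253, 393 and 695 TPM in K27M cells against 69.3, 85.7 and 416 TPM in control cells, where cultures 38, 41 and 42 averaged 380, 75.4 and 81.7 TPM. Gria1 averaged 1.65, 0.300 and 0.474 TPM in those same 3 control cultures. In control cells the sum was lower in brainstem than in telencephalon on the days when Gria1 was, with means of 55.8 TPM against 306 TPM at day 2 and of 179 TPM against 1325 TPM at day 5. Over time the mean sum was higher at day 5 in each of the 3 lines in which Gria1 rose. It was also higher in brainstem control cells (123 TPM at day 0 and 179 TPM at day 5), where Gria1 was not called over time. The part of the astrocyte markers in the result was not tested.

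Gria3 fell in every line as cells differentiated. It had group means of 1.59 to 3.80 TPM at day 5 and 12.4 to 16.3 TPM at day 0, and no library at day 5 reached the lowest at day 0 of its own line. On the log2 scale the fold change was -1.51 in brainstem K27M, -2.44 in brainstem control, -2.10 in telencephalon K27M and -2.52 in telencephalon control cells (SE 0.15 to 0.16), and all 4 held in every alternative. K27M changed Gria3 at no day in either region by the calls used here. In control cells it was higher in brainstem at day 1 (1.11) and day 2 (1.04), with overlapping libraries, and the day 1 call ended without culture 41 (0.96, adjusted p = 0.0517 by edgeR), the day 2 call without culture 38 (0.85, adjusted p = 0.222) or culture 41 (0.83, adjusted p = 0.0976).

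Kainate receptor subunits. The 5 genes split by direction over time, Grik2 rising and Grik3 and Grik4 falling in all 4 lines. Grik2, a principal subunit that forms channels by itself, had group means of 12.4 to 18.9 TPM at day 5 and 4.39 to 5.51 TPM at day 0, without overlap of libraries in any line. Its log2 fold change was 1.53 in brainstem K27M, 2.27 in brainstem control, 2.09 in telencephalon K27M and 1.72 in telencephalon control cells (SE 0.11 to 0.12). Grik3, another principal subunit, averaged 6.91 to 8.67 TPM at day 0, 11.3 to 13.5 TPM at day 1 and 2.33 to 3.79 TPM at day 5. Its fall from day 0 was 0.90 to 1.11 on the log2 scale, and libraries of the 2 days overlapped in both brainstem lines. Grik4, which needs a principal subunit as its partner, fell by 0.64 to 1.2 without overlap. All 12 of these calls held in every alternative run.

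Grik1, a principal kainate subunit, was higher in K27M cells of the telencephalon at day 5. It had 0.732, 0.950 and 1.42 TPM in K27M cells, against 0.228, 0.325 and 0.337 TPM in control cells, without overlap. The log2 fold change was 1.60 (SE 0.18), with edgeR adjusted p = 4.9e-13 by wells and 0.00468 by culture sums. It was 1.82, 1.70 and 1.29 without culture 38, 41 and 42, none of which was still called (edgeR adjusted p = 0.054, 0.0537 and 0.174). Over time Grik1 was called in control cells, falling by 1.31 in brainstem and by 1.80 in telencephalon, both held with each culture left out, while K27M cells were at 0.951, 1.17 and 1.61 TPM at day 5 against 1.42, 1.81 and 2.45 TPM at day 0 in brainstem. Whether the change over time differed with genotype was not tested. In control cells Grik1 was also higher in brainstem than in telencephalon at days 1, 2 and 5 (log2 fold changes 1.16, 1.42 and 1.00), without overlap at any of these days. These 3 region calls ended without culture 38 at days 1 and 2 (adjusted p = 0.0616 and 0.336 by edgeR), without culture 41 at day 5 (0.23) and without culture 42 at days 1 and 5 (0.0562 and 0.197). The day 5 call also ended without the 8 libraries with the most genes (0.58, adjusted p = 0.328).

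Grik4 had 0.546, 0.646 and 0.841 TPM in telencephalon K27M cells at day 5, against 0.655, 0.820 and 1.11 TPM in control cells, with most libraries in the shared range. The log2 fold change was -0.50 (SE 0.09, edgeR adjusted p = 2.04e-06 by wells and 0.0395 by culture sums), and -0.44, -0.56 and -0.52 without culture 38, 41 and 42, no longer called in any of the 3. The K27M effect on Grik4 was more positive in brainstem at day 5 by 0.82. Grik5, a partner subunit like Grik4, was called in no comparison, with group medians of 3.1 to 4.11 TPM at day 5 and 4.13 to 6.04 TPM at day 0.

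NMDA receptor subunits. Grin2a, the glutamate-binding subunit that replaces Grin2b at many synapses as neurons mature, was the receptor gene most often called for K27M, at all 4 days in brainstem and at day 5 in telencephalon. In brainstem K27M cells its median was 0.144 TPM at day 0, 0.154 at day 1, 0.167 at day 2 and 0.711 at day 5. In brainstem control cells the medians were 0.0621, 0.0750, 0.0257 and 0.144 TPM on the same days. At day 5 the libraries spanned 0.506 to 0.949 TPM in brainstem K27M cells and 0.112 to 0.25 TPM in brainstem control cells, with no overlap, while they overlapped at days 0, 1 and 2. Fold changes on the log2 scale were 1.56 (SE 0.25) at day 0, 1.81 (SE 0.26) at day 1, 2.40 (SE 0.26) at day 2 and 1.87 (SE 0.23) at day 5. The edgeR adjusted p values by culture sums were 0.0122, 0.00243, 0.000116 and 0.00043. The day 0 call ended without culture 41 (1.65, adjusted p = 0.0683 by edgeR) or culture 42 (1.01, adjusted p = 0.545) and with an offset for transcript length (1.39, adjusted p = 0.161). The day 1 call held with each culture left out but not with that offset (1.24, adjusted p = 0.141).

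In telencephalon at day 5 Grin2a had 0.868, 1.05 and 1.25 TPM in K27M cells, against 0.240, 0.372 and 0.502 TPM in control cells, without overlap. The log2 fold change was 1.46 (SE 0.23, edgeR adjusted p = 1.99e-07 by wells and 0.0178 by culture sums), and 1.37, 1.60 and 1.40 without culture 38, 41 and 42, with the call lost each time, as it was with the length offset (1.37, adjusted p = 0.134). Grin2a rose over time in all 4 lines, by 2.29 in brainstem K27M, 1.98 in brainstem control, 3.43 in telencephalon K27M and 1.36 in telencephalon control cells, all held in every alternative. The K27M effect on Grin2a was more positive in brainstem at day 1 by 1.77 and at day 2 by 3.13, and neither call was stable. The day 1 call ended without culture 38, 41 or 42 (adjusted p = 0.0697, 0.364 and 0.0805 by edgeR), the day 2 call without culture 38 or 42 (0.0641 and 0.0853), and both ended with the length offset (0.85 and 2.22, adjusted p = 0.432 and 0.11). In control cells Grin2a was lower in brainstem at day 0 (-1.76, SE 0.25) and day 2 (-2.21, SE 0.26), with overlapping libraries, and both calls held with each culture left out.

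Grin1, the subunit every NMDA receptor needs, was low throughout and fell by 1.1 in brainstem K27M, 1.43 in brainstem control, 1.53 in telencephalon K27M and 1.85 in telencephalon control cells. Its medians were 0.25, 0.168, 0.292 and 0.206 TPM at day 5 in that order of lines, and 0.563, 0.824, 1.27 and 1.13 TPM at day 0. In K27M cells at day 0 Grin1 was lower in brainstem (-0.93, SE 0.14, no overlap), a call that ended without culture 38 (-0.84, adjusted p = 0.191 by edgeR) or culture 41 (-1.04, adjusted p = 0.2), and with no culture block (-0.92, adjusted p = 0.0893).

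Grin3a, a glycine-binding subunit that lowers calcium passage, was lower in brainstem K27M cells at day 1. It had 0.894, 1.24 and 2.04 TPM there, against 1.73, 3.07 and 5.74 TPM in brainstem control cells, with a small overlap. The log2 fold change was -1.26 (SE 0.18, edgeR adjusted p = 7.68e-09 by wells and 0.0149 by culture sums), and -0.91 without culture 41, no longer called (adjusted p = 0.303). Grin2b, the glutamate-binding subunit typical of immature neurons, averaged 0.733 CPM (a gene's count per 1e6 counts of its library) in brainstem K27M cells at day 2 against 0.182 CPM in brainstem control cells. Its log2 fold change of 1.93 was no longer called without any 1 of the 3 cultures (1.94, 1.67 and 2.14 without culture 38, 41 and 42).

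**Figure D4:**
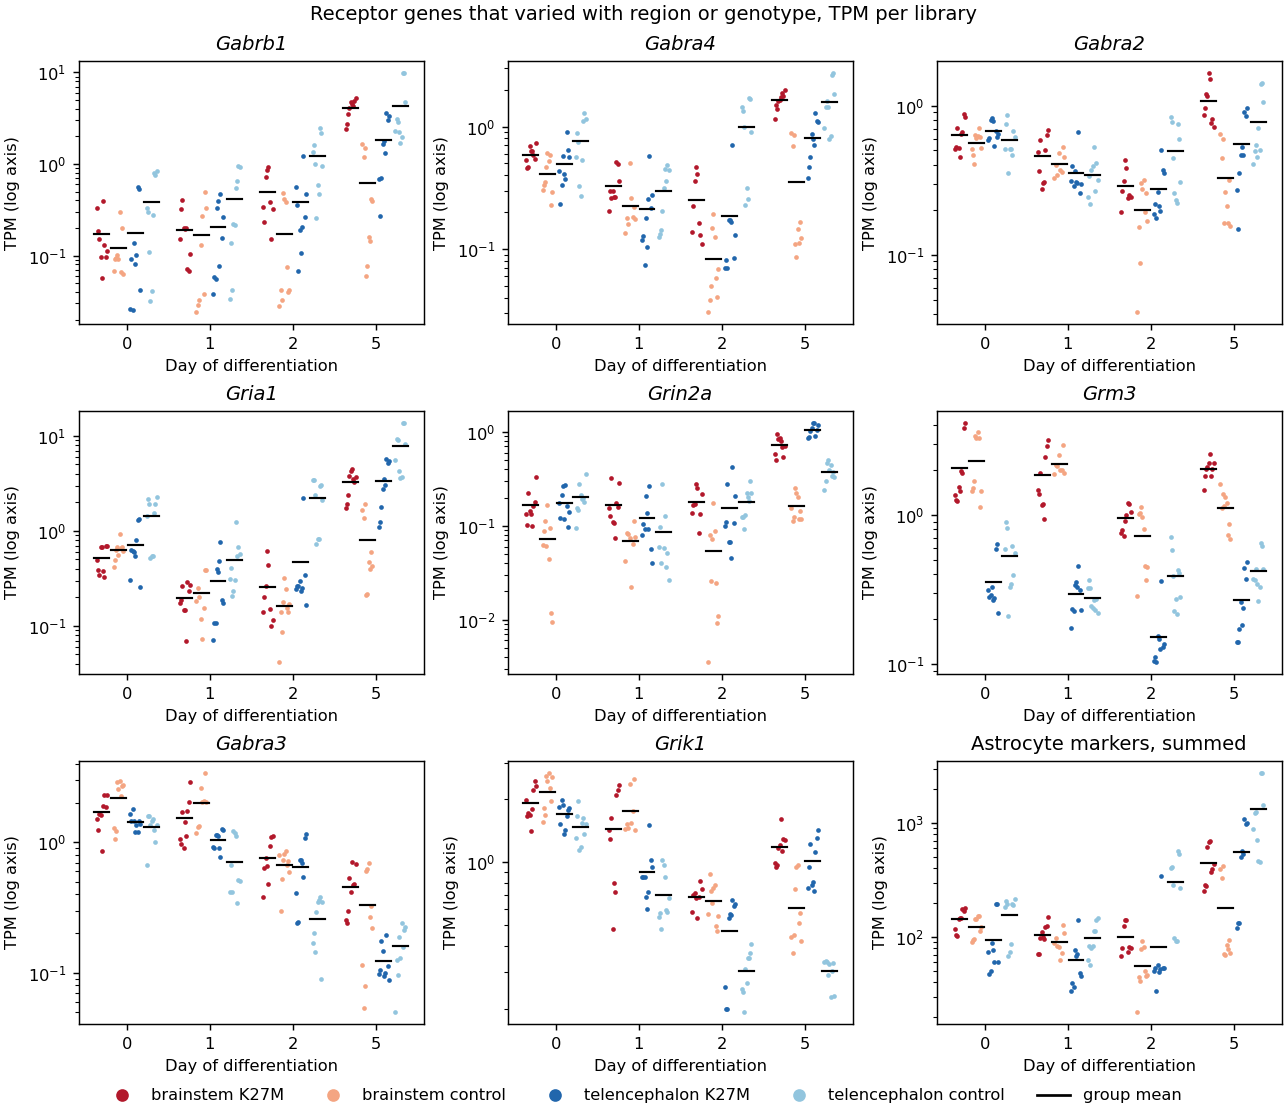
Level in TPM (log axis) of 8 receptor genes that differ between lines, and the summed level of 10 astrocyte markers, in every library by day and coloured by region and genotype, with bars at the group means. At day 5 Gabrb1, Gabra4 and Gria1 have their lowest group means in brainstem control cells, as does the astrocyte marker sum.

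Metabotropic glutamate receptors. Grm5, which couples to calcium release, and Grm7, which lowers cyclic AMP and is known from presynaptic terminals, were the abundant members and went opposite ways. Grm5 was the second most abundant of the 45 genes at day 0, with group means of 29.3 to 34.9 TPM. It fell by 1.5 in brainstem control and by 1.37 in telencephalon K27M cells, without overlap. In brainstem K27M cells it was at 12.5, 16.7 and 20.2 TPM at day 5 against 24.9, 28.0 and 36.8 TPM at day 0, and in telencephalon control cells at 9.88, 13.0 and 19.2 TPM against 25.1, 31.5 and 38.5 TPM. Libraries of the 2 days did not overlap in these lines either, yet neither was called on the fitted scale. The TPM levels carry the shift over time given above, which the fitted values do not.

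Grm7 showed the largest increase among the abundant genes. Its group means were 0.098 to 0.869 TPM at day 0, 2.61 to 11.8 TPM at day 1, 20 to 29.1 TPM at day 2 and 9.82 to 15.9 TPM at day 5, so that the level peaked at day 2 in every line. Day 5 was above day 0 in every line without overlap, with log2 fold changes of 3.98 in brainstem K27M, 4.71 in brainstem control, 7.75 in telencephalon K27M and 4.55 in telencephalon control cells (SE 0.51 to 0.64). Libraries varied widely at day 1, from 0.575 to 15.1 TPM in brainstem K27M and from 1.8 to 26.1 TPM in telencephalon control cells. At day 0 Grm7 was higher in brainstem among K27M cells (3.26, SE 0.58, overlapping), a call that ended without culture 38 (2.94, adjusted p = 0.251 by edgeR) or culture 41 (2.88, adjusted p = 0.383), and with no culture block (3.29, adjusted p = 0.0542).

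Grm3, which lowers cyclic AMP and is also known from astrocytes, was the receptor gene that most consistently told the regions apart. In K27M cells at day 5 it had 1.48, 2.05 and 2.55 TPM in brainstem, against 0.140, 0.239 and 0.483 TPM in telencephalon. At day 0 K27M cells had 1.25, 1.55 and 4.14 TPM in brainstem, against 0.221, 0.293 and 0.637 TPM in telencephalon. No library of one region reached the range of the other in K27M cells at any day. The log2 fold changes in K27M cells were 2.75, 2.65, 2.79 and 2.78 at days 0, 1, 2 and 5 (SE 0.24 to 0.25, edgeR adjusted p = 4.08e-05 to 0.000111 by culture sums), and all 4 held in every alternative. In control cells Grm3 was higher in brainstem by 2.16 at day 0, 2.83 at day 1 and 1.55 at day 5, without overlap, of which day 0 (1.56, adjusted p = 0.116) and day 5 (1.42, adjusted p = 0.141) ended without culture 41. Batch moves with region for this gene as for the others. At day 2 in telencephalon Grm3 was lower in K27M cells, at 0.103, 0.130 and 0.362 TPM against 0.216, 0.389 and 0.711 TPM in control cells, ranges that overlapped. That log2 fold change was -1.44 (SE 0.25, edgeR adjusted p = 1.55e-06 by wells and 0.0415 by culture sums), and it was -0.96, -1.75 and -1.62 without culture 38, 41 and 42, with the call lost each time. The summed astrocyte markers were lower in these same K27M libraries, as given above for Gria1, and their part in the result was not tested.

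Among the scarce members, Grm4, of the cyclic AMP-lowering group, rose over time in all 4 lines. It averaged 0.731, 0.873, 2.02 and 1.89 CPM at day 5 (brainstem K27M, brainstem control, telencephalon K27M, telencephalon control), against 0.198, 0.264, 0.398 and 0.291 CPM at day 0. The brainstem control call ended without the 8 libraries with the most genes (0.91, against 1.71 with them; adjusted p = 0.0697 by edgeR). In K27M cells at day 5 Grm4 was lower in brainstem than in telencephalon (log2 fold change -1.46, overlapping libraries), and that call held with each culture left out.

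GABA-A receptor subunits. At day 5 against day 0, 7, 7, 6 and 7 of the 14 tested genes were called lower in brainstem K27M, brainstem control, telencephalon K27M and telencephalon control cells, where 28, 32.1, 31.2 and 30.5% of all genes were. Called higher were 3, 2, 3 and 3 of the 14, beside 31.6, 32.8, 33.7 and 33.9% of all genes. Gabrg1, a gamma subunit that alters benzodiazepine response, was the most abundant. It had group means of 6.52, 3.71, 2.56 and 4.11 TPM at day 5 and of 11.2, 13, 10.5 and 13.1 TPM at day 0, without overlap in any line. Its fall on the log2 scale was 0.64 in brainstem K27M, 1.26 in brainstem control, 1.58 in telencephalon K27M and 1.23 in telencephalon control cells, of which the first ended without culture 38 (adjusted p = 0.0604 by edgeR) or culture 41 (0.0959), and with no culture block (0.0585). At day 5 Gabrg1 in K27M cells was higher in brainstem, at 5.97, 6.58 and 6.98 TPM, than in telencephalon, at 1.86, 2.53 and 3.16 TPM, without overlap (log2 fold change 1.15, SE 0.15). This region call ended without culture 38 (0.95, adjusted p = 0.109 by edgeR) or culture 41 (1.19, adjusted p = 0.0502). The K27M effect on Gabrg1 was more positive in brainstem than in telencephalon by 1.24 at day 5, although in neither region was Gabrg1 called.

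Gabra3, an alpha subunit, also fell. It had medians of 0.472, 0.266, 0.105 and 0.158 TPM at day 5 and of 1.66, 2.56, 1.45 and 1.37 TPM at day 0 in brainstem K27M, brainstem control, telencephalon K27M and telencephalon control cells, without overlap, and fell by 1.87, 2.39, 3.1 and 2.82. These 4 calls held in every alternative run. Gabra3 was higher in telencephalon K27M cells at day 2, at 0.241, 0.693 and 1.16 TPM against 0.0897, 0.291 and 0.381 TPM in control cells, ranges that overlapped (log2 fold change 1.24, SE 0.21, edgeR adjusted p = 5.48e-07 by wells and 0.0353 by culture sums). It was 1.36, 1.21 and 1.11 without culture 38, 41 and 42, no longer called in any of them. Gabrq, a theta subunit gene beside Gabra3 on the X chromosome, was called in the same comparison (log2 fold change 1.39) at a mean of 0.437 CPM in K27M and 0.167 CPM in control cells. It falls outside the rule for named genes and was named after its values were seen.

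Gabrb1, Gabra4 and Gabra2 were the 3 GABA-A genes called for K27M in brainstem at day 5, all higher in K27M cells, out of 14 tested (12.1% of all genes called). Gabrb1, a beta subunit, had 2.42, 4.29 and 5.19 TPM in brainstem K27M cells, against 0.0594, 0.389 and 1.64 TPM in brainstem control cells. Gabra4, an alpha subunit known from receptors outside synapses, had 1.16, 1.65 and 1.97 TPM in K27M cells, against 0.0858, 0.145 and 0.881 TPM in control cells. Gabra2, an alpha subunit common in young brain, had 0.721, 0.963 and 1.65 TPM in K27M cells, against 0.156, 0.262 and 0.647 TPM in control cells. Of the mean Gabra2 level in these K27M cells, 40.8% was on protein-coding transcripts. For all 3 genes every K27M library lay above every control library. The log2 fold changes were 2.15 (SE 0.32) for Gabrb1, 1.78 (SE 0.32) for Gabra4 and 1.33 (SE 0.21) for Gabra2. Their edgeR adjusted p values were 1.66e-08, 1.45e-06 and 1.22e-07 by wells, and 0.0188, 0.036 and 0.0239 by culture sums.

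The size of these 3 differences varied with the culture. The log2 difference between K27M and control was 0.57, 4.31 and 3.3 for Gabrb1 in cultures 38, 41 and 42, 0.33, 3.59 and 3.26 for Gabra4, and 0.47, 2.41 and 1.69 for Gabra2. Culture 38 thus had the smallest difference for each gene, and its control cells the highest Gabrb1 level, at 1.44 TPM against 0.0991 and 0.316 TPM in control cultures 41 and 42. Culture 38 was also the culture with K27M and control cells at the same passage, 4. Control cells were at later passages than K27M cells in culture 41 (5 against 2) and culture 42 (7 against 4). Passage and genotype cannot be told apart in cultures 41 and 42. Without culture 41 the fitted values were 1.61, 1.29 and 0.83 for Gabrb1, Gabra4 and Gabra2 (edgeR adjusted p = 0.281, 0.3 and 0.478), and without culture 42 they were 1.62, 1.23 and 1.22 (0.301, 0.471 and 0.199). Without culture 38 they were larger, at 3.7, 3.47 and 2.14, and still called. Without the 8 libraries with the most genes, which removes all day 5 brainstem control libraries of culture 41, they were 1.21, 0.86 and 0.78 (0.124, 0.185 and 0.163). With no culture block they were 2.05, 1.64 and 1.28 (0.106, 0.108 and 0.0507), and with the length offset the Gabrb1 call ended (2.31, adjusted p = 0.0854). The astrocyte marker sum given above followed the same order over the control cultures, highest in culture 38, and its part in the result was not tested.

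In telencephalon Gabra4 went the other way at day 2. It had 0.0698, 0.131 and 0.712 TPM in K27M cells, against 0.230, 0.996 and 1.71 TPM in control cells, ranges that overlapped. This was a log2 fold change of -2.58 (SE 0.33, edgeR adjusted p = 3.47e-10 by wells and 0.00901 by culture sums), and the call ended without culture 38 (-1.73, adjusted p = 0.0618) or culture 42 (-2.66, adjusted p = 0.178). The summed astrocyte markers were lower in the same K27M cells, with means of 82.5 TPM against 306 TPM in control cells. The K27M effect was more positive in brainstem for Gabra4 by 4.11 at day 2 and 2.91 at day 5, for Gabrb1 by 3.27 and 3.44, and for Gabra2 by 1.91 at day 5. In control cells brainstem was lower than telencephalon for Gabra4 at day 2 (-3.32) and day 5 (-1.95) and for Gabrb1 at day 2 (-2.67) and day 5 (-2.37). The Gabra4 difference at day 2 held in every alternative, while Gabra4 at day 5 and Gabrb1 at days 2 and 5 ended without culture 42 (adjusted p = 0.537, 0.106 and 0.386 by edgeR). At day 5 both ended as well without the 8 libraries with the most genes (-1.03 and -1.45, adjusted p = 0.124 and 0.0667), Gabra4 without culture 41 (-1.69, adjusted p = 0.0694) or with no culture block (-1.90, adjusted p = 0.0634), and Gabrb1 with the length offset (-2.37, adjusted p = 0.0633). At day 5 these differences were -3.67 for Gabra4 and -3.94 for Gabrb1 without culture 38. The astrocyte marker sums of control cells given for Gria1, lower in brainstem at both days, moved with these differences, and their part was not tested. Over time Gabrb1 rose in all 4 lines, by 4.18 in brainstem K27M, 3.04 in brainstem control, 4.25 in telencephalon K27M and 4.13 in telencephalon control cells, each held with every culture left out. The mean astrocyte marker sum was higher at day 5 in these lines too. In brainstem control cells this came from culture 38, with 93.8 TPM at day 0 and 380 TPM at day 5. The sum was lower at day 5 there in culture 41 (147 and 75.4 TPM) and culture 42 (129 and 81.7 TPM). Its part was not tested.

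Gabrg1, Gabra2, Gabra4 and Gabrb1 lie side by side on chromosome 5, at chr5:70751047-70842617 (minus strand), chr5:70957597-71095849 (minus), chr5:71569749-71658308 (minus) and chr5:71658113-72149037 (plus). Gabra4 and Gabrb1 stand head to head: the 5' ends of transcripts Gabra4-201 and Gabrb1-202 overlap by 196 bases, and the other Gabrb1 start, of Gabrb1-201, lies 41624 bases from that of Gabra4. Since 3 of these neighbours (Gabra2, Gabra4 and Gabrb1) were called together for K27M in brainstem at day 5, bases just upstream of gene starts in the cluster are printed. They cover Gabra4, Gabrb1 and Gabrg1, of which Gabrg1 was not called for K27M in either region, and they do not cover Gabra2. The bases come from RefSeq's table for GRCm38.p6, with Gabra4 shortened where its window ran into a Gabrb1 exon. Capitals mark the CCAAT box (CCAAT), the GC box (letters GGGCGG) and the TATA box (letters TATAAA) on either strand.
Gabra4 upstream, chr5:71658364-71658558, minus strand: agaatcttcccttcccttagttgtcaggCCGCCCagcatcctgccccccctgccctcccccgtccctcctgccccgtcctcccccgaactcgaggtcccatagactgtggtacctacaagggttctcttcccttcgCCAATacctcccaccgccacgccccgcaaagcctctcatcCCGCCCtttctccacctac
Gabrb1 upstream of Gabrb1-201, chr5:71699682-71699931, plus strand: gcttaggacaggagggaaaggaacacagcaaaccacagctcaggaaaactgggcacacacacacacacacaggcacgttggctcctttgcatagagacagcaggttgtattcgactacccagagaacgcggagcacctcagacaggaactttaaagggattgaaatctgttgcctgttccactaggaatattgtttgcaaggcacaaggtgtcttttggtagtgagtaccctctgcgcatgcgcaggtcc
Gabrg1 upstream, chr5:70842618-70842867, minus strand: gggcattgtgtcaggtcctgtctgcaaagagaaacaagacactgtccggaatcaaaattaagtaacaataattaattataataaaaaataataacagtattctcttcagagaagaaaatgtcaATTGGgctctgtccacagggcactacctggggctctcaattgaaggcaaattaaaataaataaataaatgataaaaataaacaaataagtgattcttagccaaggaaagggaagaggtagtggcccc

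The Gabra4 stretch held 1 CCAAT and 2 GGGCGG, the Gabrg1 stretch 1 CCAAT, and the Gabrb1 stretch none of the 3 motifs. Over all 32851 windows of the 250 bases before a gene start in that table, 33.85% held CCAAT, 32.74% GGGCGG and 12.37% TATAAA. A window was given for 32 of the 45 receptor genes. These matches are descriptions of letters and were not tested against the levels.

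GABA-B receptor subunits. Gabbr1, the subunit that binds GABA, rose in every line, and Gabbr2, the subunit that carries it to the surface and couples to G proteins, stayed far lower. Gabbr1 had group means of 18 to 23.1 TPM at day 5 and of 8.48 to 11.5 TPM at day 0, without overlap in any line. Its log2 fold change was 1.09 in brainstem K27M, 1.44 in brainstem control, 1.17 in telencephalon K27M and 1.56 in telencephalon control cells (SE 0.09 each), and all 4 held in every alternative. Gabbr2 averaged 0.738, 0.243, 0.259 and 0.559 TPM at day 5 in the same order. The K27M effect on Gabbr2 at day 5 was more positive in brainstem by 2.26, while neither region's own difference was called. No GABA-B gene was called for K27M within a region at any day.

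Other genes of the pathway were taken from lists of 56 genes for auxiliary subunits, scaffolds, transport, synthesis and breakdown, vesicular loading, chloride transport and RNA editing, of which 52 were tested. For K27M against control, 0, 1, 2 and 4 of them were higher and 0, 0, 0 and 1 lower at days 0, 1, 2 and 5 in brainstem, and 0, 2, 3 and 2 higher and 0, 2, 3 and 0 lower in telencephalon. Beside the 1.45, 4.93, 4.26 and 12.1% of all genes called in brainstem and 0.389, 4.99, 5.3 and 2.28% in telencephalon, the share of the 52 was lower at every day in brainstem and at day 0 in telencephalon, and higher at days 1, 2 and 5 in telencephalon. Grip1, a scaffold that holds AMPA receptors at synapses, was called higher in K27M in 5 of these 8 comparisons. At day 5 it had 2.46, 4.36 and 4.99 TPM in brainstem K27M cells against 1.46, 1.96 and 2.30 TPM in brainstem control cells. In telencephalon at day 5 Grip1 had 3.53, 3.82 and 4.05 TPM in K27M cells against 1.66, 2.05 and 2.78 TPM in control cells. No library overlapped in either region, and the log2 fold changes were 0.66 (SE 0.09) and 0.75 (SE 0.09), with edgeR adjusted p = 0.0107 and 0.0179 by culture sums. None of the Grip1 calls was kept without culture 41 or culture 42, where the day 5 values were 0.47 and 0.65 in brainstem and 0.69 and 0.82 in telencephalon.

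Slc7a11, the cystine and glutamate exchanger that releases glutamate from glia, had 0.710, 1.28 and 1.91 TPM in brainstem K27M cells at day 5 against 0.0473, 0.0789 and 0.0963 TPM in brainstem control cells. Its log2 fold change was 3.65 (SE 0.48, edgeR adjusted p = 0.00359 by culture sums), and the call ended without culture 42 (3.55, adjusted p = 0.0864). Slc1a3, a glutamate transporter that is also one of the astrocyte markers, was called higher in the same comparison (1.51) and lower in telencephalon K27M cells at day 2 (-1.81), and both calls ended without culture 41 (0.98 and -2.25, adjusted p = 0.47 and 0.104) or culture 42 (1.12 and -1.84, adjusted p = 0.417 and 0.236).

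Over time the pathway genes moved in both directions, 13 higher and 15 lower at day 5 in brainstem K27M, 12 and 19 in brainstem control, 19 and 17 in telencephalon K27M, and 20 and 16 in telencephalon control cells. All genes were called at 59.6, 64.9, 64.9 and 64.4% in these lines, above the share of the 52 in both brainstem lines and below it in both telencephalon lines. Glul, the enzyme that turns glutamate into glutamine, had group means of 275 to 339 TPM at day 5 and 32.9 to 43.3 TPM at day 0. Slc12a2, which brings chloride into cells, averaged 54.9 to 64.8 TPM at day 5 and 16.5 to 27.9 TPM at day 0. Both rose in all 4 lines. Neto1, an auxiliary subunit of kainate receptors, averaged 0.355 to 0.919 TPM at day 5 and 4.56 to 7.53 TPM at day 0. Adarb1, the enzyme that edits the Gria2 message, averaged 0.621 to 1.06 TPM at day 5 and 2.51 to 4.72 TPM at day 0. Both fell in all 4 lines, as did Cacng4 and Cacng8, auxiliary subunits that guide AMPA receptors, and these calls held in every alternative run.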

How the data were processed

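RNA of each well was sequenced as paired-end, stranded total RNA libraries, and the authors estimated transcript levels with Salmon 1.10.1 against mm10 and a GENCODE annotation, correcting for sequence and GC bias. The deposited files give estimated counts (read pairs per transcript, not whole) and TPM as the authors' program wrote them. The deposited effective transcript lengths served for a length offset. Of 141084 transcripts, 139821 matched 54127 genes of GENCODE M21 by identifier, and the unmatched ones, 0.252 to 0.377% of read pairs, were left out. Estimated counts were summed by gene and rounded, and TPM was summed by gene.

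edgeR 4.0.16 (R 4.3.3) was fitted to all libraries in 1 model of the 16 groups with culture within region as a block, TMM scaling and filterByExpr, and again to counts summed by culture line and day. P-values were Benjamini-Hochberg adjusted over all genes of each fit, and a call needed an adjusted p under 0.05 with the same sign in both. The block rests on matched culture pairs of both genotypes, whose assays the study says were completed at the same time. Passages could differ within a pair, as given above. Deviations from group means correlated at a median r of 0.272 over 24 culture pairs (-0.266 to 0.78, 20 over 0.1). Both fits were tested on simulated data. Alternatives were wells alone, culture sums alone, RLE scaling, no filter, a length offset, DESeq2 1.42.0, passage as a term over wells, no block, a well number block over wells, each culture left out, and leaving out the 8 libraries with the most genes. Protein-coding transcripts alone were added after seeing the data. Genes under 1 TPM in every group were named only where called with a mean of 0.5 CPM or more in a compared group. Some receptor genes that the counts include are not reported here by name. The receptor genes, the lists and the tests were chosen with earlier results of these data known.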

Additional observations from a re-analysis of the deposited data

Results flagged for a closer look

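Among 21 genes of at least 1 TPM, 9 of 217 sets of libraries (1 gene in 1 group, 4.15%) held a library far from the other libraries of its group. The limit used gives about 1 in 20 for independent, normally spread values. Wells of 1 culture are not independent, so that rate need not hold here. Grik5 had 5 of the 9: culture 38 replicate 3 was highest in brainstem K27M cells at day 0 (11.9 TPM, next 6.38), day 1 (21.3 TPM, next 8.66) and day 5 (8.31 TPM, next 5.7), culture 42 replicate 3 in brainstem control cells at day 0 (9.84 TPM, next 6.48), and culture 41 replicate 3 in telencephalon control cells at day 1 (11.9 TPM, next 6.97). Gria2 was lowest in culture 38 replicate 3 of brainstem K27M cells at day 0 (29.2 TPM, next 33.2). Gria3 was highest in culture 42 replicate 3 of telencephalon control cells at day 2 (4.68 TPM, next 2.66). Gabbr1 was highest in culture 41 replicate 3 of telencephalon control cells at day 1 (12.9 TPM, next 9.28). Gabrg1 was lowest in culture 38 replicate 1 of brainstem control cells at day 2 (2.4 TPM, next 7.08).

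The K27M effect differed between brainstem and telencephalon, by edgeR's interaction test over wells and over culture sums, for 12 pairs of gene and day given here. On the log2 scale the brainstem effect minus the telencephalon effect was 1.77 for Grin2a at day 1, and 4.11 for Gabra4, 3.27 for Gabrb1 and 3.13 for Grin2a at day 2. At day 5 it was 2.26 for Gabbr2, 1.91 for Gabra2, 2.91 for Gabra4, 3.44 for Gabrb1, 1.24 for Gabrg1, 2.93 for Gria1, -1.05 for Gria2 and 0.82 for Grik4. Each of the 12 was lost when at least 1 of the 3 cultures was left out.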

How the results depend on the processing

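The number of receptor genes called for K27M (1, 2, 2 and 6 in brainstem and 0, 0, 5 and 3 in telencephalon at days 0, 1, 2 and 5) was 9, 14, 8 and 19 in brainstem and 13, 9, 17 and 21 in telencephalon over wells alone, and 4, 10, 5 and 13, and 4, 4, 11 and 16, with DESeq2 over wells. For the K27M effect between regions (0, 2, 3 and 9) the counts were 7, 13, 13 and 17 over wells alone and 4, 13, 11 and 15 with DESeq2. For brainstem against telencephalon they were 12, 17, 10 and 25 in K27M cells (6, 3, 2 and 9) and 17, 25, 27 and 25 in control cells (3, 12, 15 and 13) over wells alone, and 11, 8, 7 and 21 in K27M cells and 12, 18, 22 and 19 in control cells with DESeq2. With an offset for transcript length, K27M calls in brainstem numbered 0, 1 and 1 at days 0, 1 and 2, and those of the effect between regions 1 and 1 at days 1 and 2. Without a filter on low counts the effect at day 1 and region in K27M cells at day 2 had 1 gene each, and with protein-coding transcripts alone, an alternative chosen after seeing the data, the effect at day 1 had 1. Without the 8 libraries with the most genes, 3 genes were called for K27M in brainstem at day 5, 2 for the effect at day 5 and 6 for region in control cells at day 5. Counts over culture sums alone, with RLE scaling and with passage as a term over wells stayed within 1.5 times those given. A call needed both fits, so the runs over wells alone and over culture sums alone could end no call. The passage term and the well number block entered only the fit over wells. The culture-summed fit was left as it was in those runs. The cause of these changes was not tested.

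The fits held the culture as a block. With no replicate block, 1 and 3 genes were called for K27M in brainstem at days 2 and 5, 3 in telencephalon at day 2, 1 and 2 for the effect between regions at days 1 and 5, and 3, 1 and 1 for region in K27M cells at days 0, 1 and 2. Well numbers did not pair the libraries (68 pairs, median r -0.003, 18 over 0.1), and a well number replicate block over wells ended 0 of the 201 calls of receptor genes, leaving for example 6 for K27M in brainstem at day 5.

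With 1 culture left out, 0 to 1, 1 to 7, 1 to 1 and 2 to 13 receptor genes were called for K27M in brainstem, and 0 to 0, 0 to 1, 0 to 1 and 0 to 0 in telencephalon, at days 0, 1, 2 and 5. The effect between regions gave 0 to 0, 0 to 2, 0 to 2 and 0 to 12, region in K27M cells 1 to 5, 2 to 2, 1 to 2 and 6 to 8, and region in control cells 1 to 5, 6 to 9, 6 to 11 and 2 to 13. Day 5 against day 0 gave 21 to 23 in brainstem K27M, 23 to 27 in brainstem control, 22 to 27 in telencephalon K27M and 24 to 27 in telencephalon control cells.

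Of the 201 calls, 105 were kept in every alternative. In brainstem control cells at day 5 against day 0 the sign turned for Gria2 (0.56) to -0.0182 without culture 42 (edgeR adjusted p = 0.85) and to -0.0404 on coding transcripts alone (0.909), and, without the 8 libraries with the most genes, for Grm8 (0.75) to -0.11 (0.873) and for the pathway gene Cacng2 (4.52) to -0.52 (0.671). Gria2 was at 0.89 in that comparison without culture 38.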
